A study of Mus musculus with 6 samples.

Results

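The ETS transcription factor genes Erg, Fli1, Ets1, Ets2, Elk3, Etv2 and Etv6 were examined for DNA methylation in sorted lung endothelial cells of the mouse. Dnmt3a knockout (KO, 3 samples) was compared with wild type (WT, 3 samples). Dnmt3a encodes a de novo DNA methyltransferase. The labels give the genotype as knockout or wild type only. The allele, the cells in which it was deleted, and the strain, sex and age of the mice are not stated in the labels, nor is whether each sample was 1 animal, so p-values measure the spread between samples, which may be technical. The assay was tagmentation-based whole-genome bisulfite sequencing, in which unmethylated cytosines are converted and methylated ones are not. Its readout here was the methylation of 1 kb tiles on chromosomes 1 to 19 (build mm10). The members were the tiles that overlap the RefSeq span of a listed gene or the 20 kb on each side of it, called its window here. They numbered 1050 of 1954255 tiles. Levels are in percent and differences, KO minus WT, in points. Errors are standard deviations over n = 3 samples unless a standard error (SE) is named. The table holds no read counts, so the depth behind a level is unknown.

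ETS factors share a DNA-binding domain, the ETS domain, that recognises a GGAA core. Etv2 is known as the factor that starts the endothelial programme in the embryo and is then switched off. Erg and Fli1 are known to maintain endothelial identity in adult vessels, Ets1 and Ets2 act downstream of growth factor and Ras signals, and Elk3 and Etv6 are mainly repressors. Active gene starts are usually free of methylation, and de novo methyltransferases are known to act at the borders of such unmethylated stretches. Erg and Ets2 are neighbours on chromosome 16, with 115.8 kb between them, and Fli1 and Ets1 on chromosome 9, with 92.8 kb between them, so the windows of a pair lie near each other without sharing a tile. The start of a gene was taken from the RefSeq promoter table of GRCm38.p6, which matched 5 of the 7 genes with 7 starts. Fli1 and Ets1 were not matched and are given by both of their ends, the low end being the one with the lower coordinate. In the mouse these genes are known to be transcribed away from each other, Fli1 from its high end and Ets1 from its low end. Starts inside Fli1 and Ets1 were not available.

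The 3 starts of Erg and the start of Etv2 are shown because they differ in CG content and in methylation. Each sequence covers the 250 bases before the start and 50 bases counted from its first base on. It runs 5′ to 3′ on the strand of the gene (RefSeq, GRCm38.p6), and capitals mark CG, the dinucleotide whose cytosine is methylated. The first lies at chr16:95586544-95586843, the second at chr16:95530316-95530615 and the third at chr16:95459299-95459598, all on the minus strand. The start of Etv2 lies at chr7:30635803-30636102 on the minus strand.
Erg outer start: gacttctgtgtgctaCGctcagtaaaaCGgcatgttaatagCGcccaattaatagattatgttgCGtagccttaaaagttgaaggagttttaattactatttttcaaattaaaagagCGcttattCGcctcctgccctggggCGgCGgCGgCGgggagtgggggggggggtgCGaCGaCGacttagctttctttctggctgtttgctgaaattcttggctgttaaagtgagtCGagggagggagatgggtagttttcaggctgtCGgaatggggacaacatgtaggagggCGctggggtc
Erg middle start: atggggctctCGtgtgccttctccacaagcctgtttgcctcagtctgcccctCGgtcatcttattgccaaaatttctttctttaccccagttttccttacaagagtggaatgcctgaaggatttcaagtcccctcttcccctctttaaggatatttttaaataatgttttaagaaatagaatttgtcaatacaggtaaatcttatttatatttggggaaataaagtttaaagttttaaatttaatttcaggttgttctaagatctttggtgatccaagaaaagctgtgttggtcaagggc
Erg inner start: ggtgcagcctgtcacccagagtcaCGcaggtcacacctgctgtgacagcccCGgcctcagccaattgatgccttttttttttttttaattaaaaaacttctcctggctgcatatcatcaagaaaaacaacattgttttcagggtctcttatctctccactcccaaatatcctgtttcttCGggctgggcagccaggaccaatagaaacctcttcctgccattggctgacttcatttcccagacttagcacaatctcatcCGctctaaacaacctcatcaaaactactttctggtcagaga
Etv2 start: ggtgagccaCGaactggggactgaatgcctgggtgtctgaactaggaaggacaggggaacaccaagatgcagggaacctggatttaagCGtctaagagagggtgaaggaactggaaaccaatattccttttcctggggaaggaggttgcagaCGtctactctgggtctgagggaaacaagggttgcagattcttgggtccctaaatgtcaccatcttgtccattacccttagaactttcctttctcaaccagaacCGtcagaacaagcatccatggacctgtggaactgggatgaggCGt
The outer start of Erg holds 16 CG, the middle start 2 and the inner start 4, against a median of 7 over 32851 promoters of the same length. The start of Etv2 holds 5 CG. GGAA, counted on both strands, occurs 11 times at the start of Etv2, more than in 99.7% of all promoters, and 1, 4 and 2 times at the outer, middle and inner starts of Erg. It occurs at least once in 96.0% of all promoters. CCGGAAG, which contains GGAA and a CG, was searched on both strands as well. It occurs in 8.86% of all promoters and in none of the 7 member promoters. The starts of Ets2, Elk3 and Etv6 hold 30, 31 and 17 CG.

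Methylation was lower in KO over each of the 7 windows, by little at Etv2 and by most at Fli1. Of the 1050 tiles, 508 were called lower (limma, adjusted p under 0.05 and a loss of at least 10 points), which is 48.4%, against 16.2% of all tiles. With each sample centred on its own median, which takes out the shift of -4.89 points between the groups, 274 were called lower and 3 higher. With samples scaled to one mean level 286 were lower and 5 higher. The 16.2% of all tiles is for the levels as deposited, and the share of all tiles after centring or scaling is not given here. In the levels as deposited none was called higher, and 3 were higher at an unadjusted p under 0.05 (limma). Of all tiles 0.0796% were called higher (limma, adjusted p under 0.05 and a gain of at least 10 points). Each KO sample was lower than each WT sample in 676 of the 1050 tiles, 64.4%, against 31.6% of all tiles. The median difference was -10.6 points over the member tiles and -4.05 over all tiles. The loss did not spread evenly over tiles of different level. Among member tiles at 50 to 80% in WT, 262 of 464 were called lower, 56.5%, against 13.7% of all tiles of that class. Among those at 10 to 50% in WT it was 52.3% against 26.8%, and at 80% or more 42.9% against 20.7%. A tile under 10% in WT cannot lose 10 points, and 55 of the member tiles were that low. Losses of 20 points or more were seen in 192 member tiles, 18.3%, against 4.50% of all tiles.

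The whole table gives the scale for these values. Its mean level was 63.5, 63.7 and 63.8% in the KO samples, against 69.5, 68.8 and 68.7% in the WT samples. The span of Dnmt3a itself had 50.3% ± 0.983 in KO and 65.6% ± 0.620 in WT, which does not show the deletion. As a check of the cell type, start windows with a known strand were read for marker genes. The median difference was -3.87 points for endothelial markers (1 of 6 called lower), -5.83 for leukocyte markers (1 of 6), -6.96 for epithelial markers (2 of 5) and -12.1 for mesenchymal markers (2 of 3). Median levels were 9.80% in KO and 20.8% in WT for endothelial markers, and 62.3% in KO and 69.4% in WT for leukocyte markers. Epithelial markers had 32.8% in KO and 39.7% in WT. The 3 mesenchymal starts were unlike each other, Pdgfra with 0.831% in KO and 1.67% in WT, Tcf21 with 1.70% in KO and 44.7% in WT, and Acta2 with 47.9% in KO and 60.0% in WT. Methylation at starts does not count cells, and the part of other cell types in the results was not tested.

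**Figure D1:**
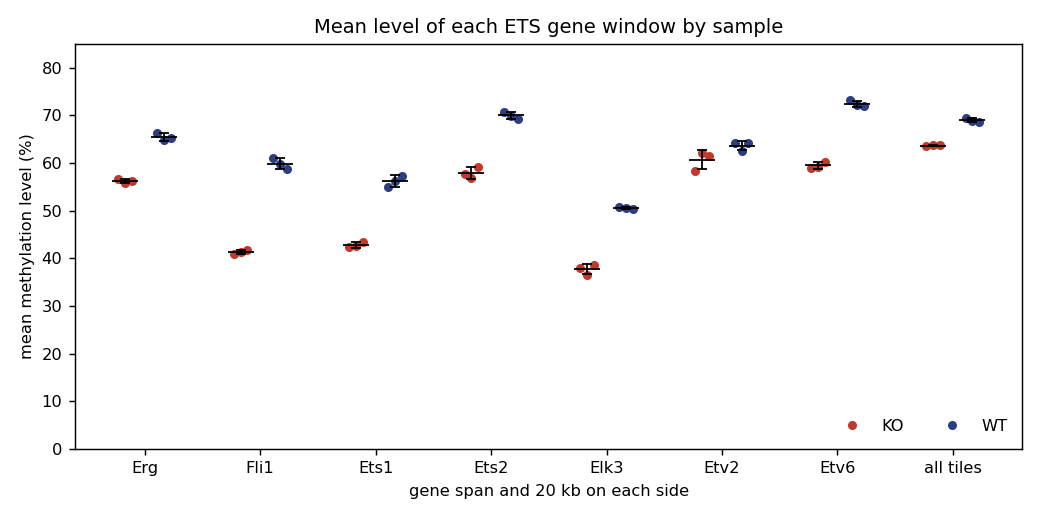
Mean methylation level (%) of each gene window, and of all tiles at the right, in each sample (points), with the mean and SD of KO (red) and WT (blue), n = 3 each. The groups do not overlap in any of the 7 windows, nor over all tiles, and the gap is widest at Fli1 and narrowest at Etv2. The share of all gene windows without overlap is not given here.

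Fli1, the paralogue of Erg, lost the most. Its window (chromosome 9, 32402204 to 32563432) had 40.9, 41.3 and 41.8% in the KO samples, against 61.0, 59.8 and 58.7% in the WT samples. The groups lay far apart, at -18.5 points (two-sided exact permutation test, n = 3 per group, p = 0.10, which 3 samples per group cannot go below). Of 20450 windows of protein-coding genes, with a median of -5.67 points, 0.685% lost more. In the Fli1 window 109 of 158 tiles were called lower. The gene body, the tiles at least 1 kb inside the span, was at 43.1% ± 0.630 in KO and 59.6% ± 1.56 in WT. That is -16.5 points (SE 1.08, limma, adjusted p = 1.33e-05), against a median of -5.37 over 15364 bodies. Bodies were called at a loss of 5 points, which 53.3% of all bodies reached.

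The losses at Fli1 were strongest beyond its high end, the end where transcription is known to begin. The mean difference was -31.0 points in the 20 kb beyond that end, -20.5 beyond the low end and -16.2 in the span. The 2 kb window on the high end had 1.81, 1.63 and 0.512% in KO, against 9.77, 6.37 and 7.83% in WT, low in both groups and lower in each KO sample. The difference of -6.67 points (SE 0.940, limma, adjusted p = 0.000272) missed the 10-point minimum. On either side of the end the gap opened. The first 10 kb of the gene after that window had 10.2, 12.3 and 10.1% in KO, against 27.7, 25.7 and 19.4% in WT (-13.4 points, SE 1.89, limma, adjusted p = 0.000157). This call ended on centring (-8.50). The 20 kb beyond the gene had 24.9, 24.3 and 24.8% in KO, against 57.1, 53.8 and 56.1% in WT. Unmethylated tiles, under 10% in the group mean, formed 1 run of 13 kb across the end in KO (32535001 to 32548000). In WT a run of 3 kb (32540001 to 32543000) stopped just inside the gene. The tile that holds the end was at 1.35% in KO and 12.1% in WT. Counted sample by sample, the run that comes within 1 kb of the end was 11, 8 and 14 kb long in KO. It was 3, 3 and 4 kb in WT, with no overlap (exact permutation test, n = 3 per group, p = 0.10).

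The tile with the largest loss of all member tiles lay 3.1 kb beyond this end (32546001 to 32547000). It had 10.6, 6.33 and 7.95% in the KO samples, against 82.9, 83.8 and 84.2% in the WT samples, so a methylated tile in WT was nearly free of methylation in KO (-75.3 points, SE 3.81, limma, adjusted p = 1.05e-10). Its neighbour (32545001 to 32546000) had 0.612, 2.41 and 0.686% in KO, against 67.7, 59.8 and 68.6% in WT. The mean was under 10% in KO in 4 member tiles that were at least at 50% in WT. All 4 lay in this flank of Fli1. Of all 1954255 tiles, 1247 met the same limits, against these 4 of the 1050 member tiles. Inside the gene, a run of 28 called tiles over 29 kb (32494001 to 32523000) was at 25.4% ± 1.82 in KO and 50.3% ± 3.20 in WT, the longest run of calls in the 7 windows. Means of such runs, here and below, cover called tiles only. These were chosen for their loss, so the gap between the groups is no further test. Tiles under 10% numbered 30, 24 and 27 in the KO samples, against 5, 6 and 6 in the WT samples. The opposite, low end of Fli1 was well methylated, with 48.2, 40.3 and 56.7% in KO, against 67.0, 55.2 and 62.0% in WT. These samples overlapped. The call there (-12.9 points, limma, adjusted p = 0.0291) ended without KO sample 1 (-12.8, adjusted p = 0.0676), KO sample 2 (-8.90, 0.110), WT sample 1 (-10.1, 0.106) or WT sample 3 (-12.7, 0.0712). It also ended on centring (-8.06), on scaling (-8.51) and without a variance trend (adjusted p = 0.0576).

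**Figure D2:**
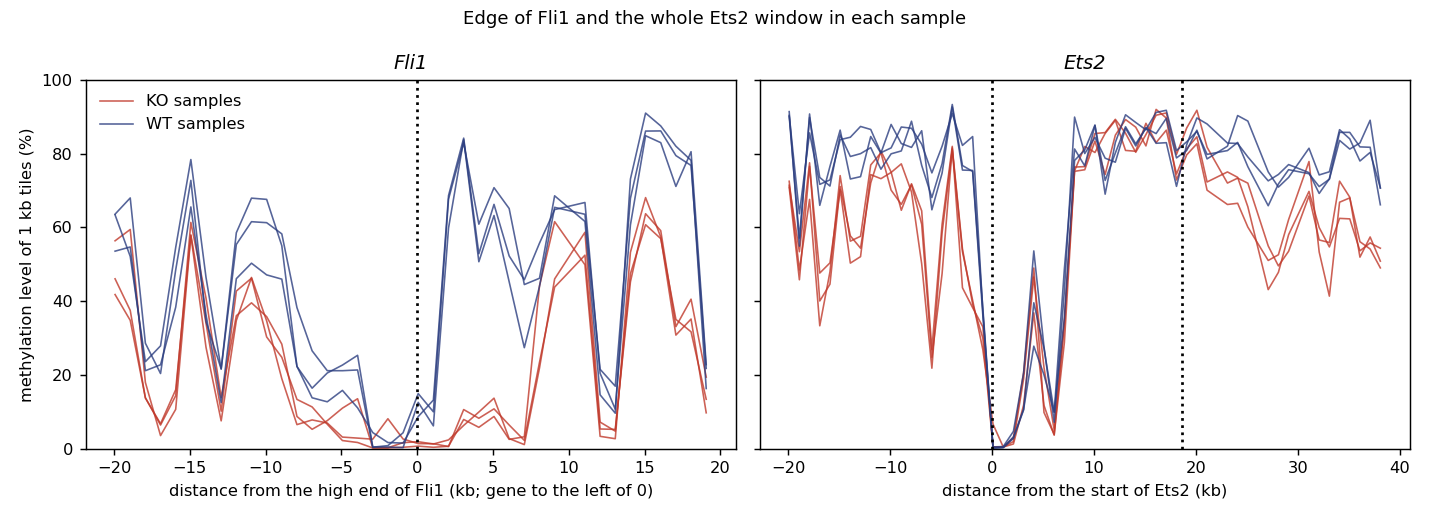
Methylation level (%) of 1 kb tiles in each KO sample (red) and WT sample (blue) against distance in kb from the high end of Fli1, with the gene to the left of the dotted line, and from the start of Ets2, whose span lies between the dotted lines. At Fli1 the KO samples stay low for several kb past the end where the WT samples rise above 60%, and at Ets2 14 of 17 and 15 of 20 flank tiles were called lower, against 1 of 20 tiles of the span.

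Erg, the other endothelial identity factor, changed less than its paralogue. Its window (chromosome 16, 95339169 to 95606600) had 56.7, 55.9 and 56.3% in KO, against 66.3, 64.8 and 65.2% in WT, without overlap. The difference was -9.13 points (exact permutation test, n = 3 per group, p = 0.10), and 20.4% of all gene windows lost more. Of its 257 tiles, 87 were called lower, 33.9%. The body fell to 57.0% ± 0.669 in KO, against 65.7% ± 0.871 in WT (-8.74 points, SE 0.839, limma, adjusted p = 6.54e-05). This call ended when each sample was centred on its median (-3.85) or scaled to one mean level (-3.79), where the direction held. Of the 7 genes, Erg has the most starts in the table, and their levels differed widely.

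The outer start of Erg, at the end of the gene span (95586593), was low in both groups. The window of 1 kb on either side had 18.8, 20.02 and 24.9% in KO, against 25.1, 27.0 and 24.3% in WT, and the samples overlapped (-4.25 points, limma, adjusted p = 0.0720). The first 10 kb of the gene after it had 62.9, 58.3 and 63.2% in KO, against 76.0, 73.5 and 73.6% in WT, and here all KO samples were lower (-12.9 points, SE 1.81, limma, adjusted p = 0.000151). This call ended on centring (-8.00) and on scaling (-7.41). The CG-poor middle start (95530365) was methylated, at 70.5, 75.2 and 65.0% in KO, against 84.6, 74.5 and 72.3% in WT, again with overlap. The inner start (95459348), also poor in CG, was nearly unmethylated, at 6.75, 7.64 and 2.32% in KO, against 12.3, 9.32 and 13.8% in WT (-6.23 points, limma over 30807 annotated starts, adjusted p = 0.00595, below the 10-point minimum). None of the 3 starts was called. Of all annotated starts 23.1% were called lower and 0.0390% higher.

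The inner start sits in the widest unmethylated stretch that the 7 windows held in WT. Tiles under 10% ran for 12 kb in KO (95449001 to 95461000) and 11 kb in WT (95449001 to 95460000) in the group means. By sample the run was 11, 11 and 14 kb in KO, against 11, 8 and 11 kb in WT, so the groups overlapped (exact permutation test, n = 3 per group, p = 0.60). At its upstream border methylation was lower in KO. The longest run of calls at Erg, 10 tiles over 11 kb (95460001 to 95471000), began there, at 42.0% ± 0.816 in KO and 60.6% ± 2.96 in WT. A single pair of adjacent tiles (95375001 to 95377000) was under 10% in KO only, at 8.62% in KO and 36.0% in WT. The largest loss in the Erg window lay in the low flank, past the far end of the gene (95340001 to 95341000). It had 44.8, 38.6 and 46.2% in KO, against 78.1, 75.7 and 74.2% in WT (-32.8 points, SE 4.08, limma, adjusted p = 7.22e-06).

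Etv2, the embryonic factor, showed the smallest difference. Its window (chromosome 7, 30613616 to 30656509) had 58.4, 62.1 and 61.5% in KO, against 64.2, 62.6 and 64.2% in WT. The groups were separated by less than 1 point (-2.96 points, exact permutation test, n = 3 per group, p = 0.10), and without KO sample 1, the lowest, the difference was -1.82. The sign turned on centring (1.93) and on scaling (2.07). None of 43 tiles was called in either direction, and 8 were lower and 0 higher at an unadjusted p under 0.05 (limma). The gene is under 3 kb long (2894 bp) and all of it lay in an unmethylated stretch of 4 kb (30633001 to 30637000) in both groups, at 4.61% in KO and 6.58% in WT. By sample the stretch was 3, 4 and 4 kb long in KO and 4 kb in each WT sample. The window on the annotated start had 4.30, 1.81 and 3.18% in KO, against 7.14, 6.70 and 5.68% in WT. All KO samples were lower (-3.41 points, SE 0.843, limma, adjusted p = 0.00674), within a level that leaves no room for a 10-point loss. The end of the gene span, which lies upstream of that start, had 26.8% ± 3.46 in KO and 30.9% ± 2.35 in WT (-4.15 points, limma, adjusted p = 0.127, and 0.744 after centring). No body was measured, since the gene is too short. Its window also holds the genes Cox6b1 and Rbm42 and part of Haus5.

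**Figure D3:**
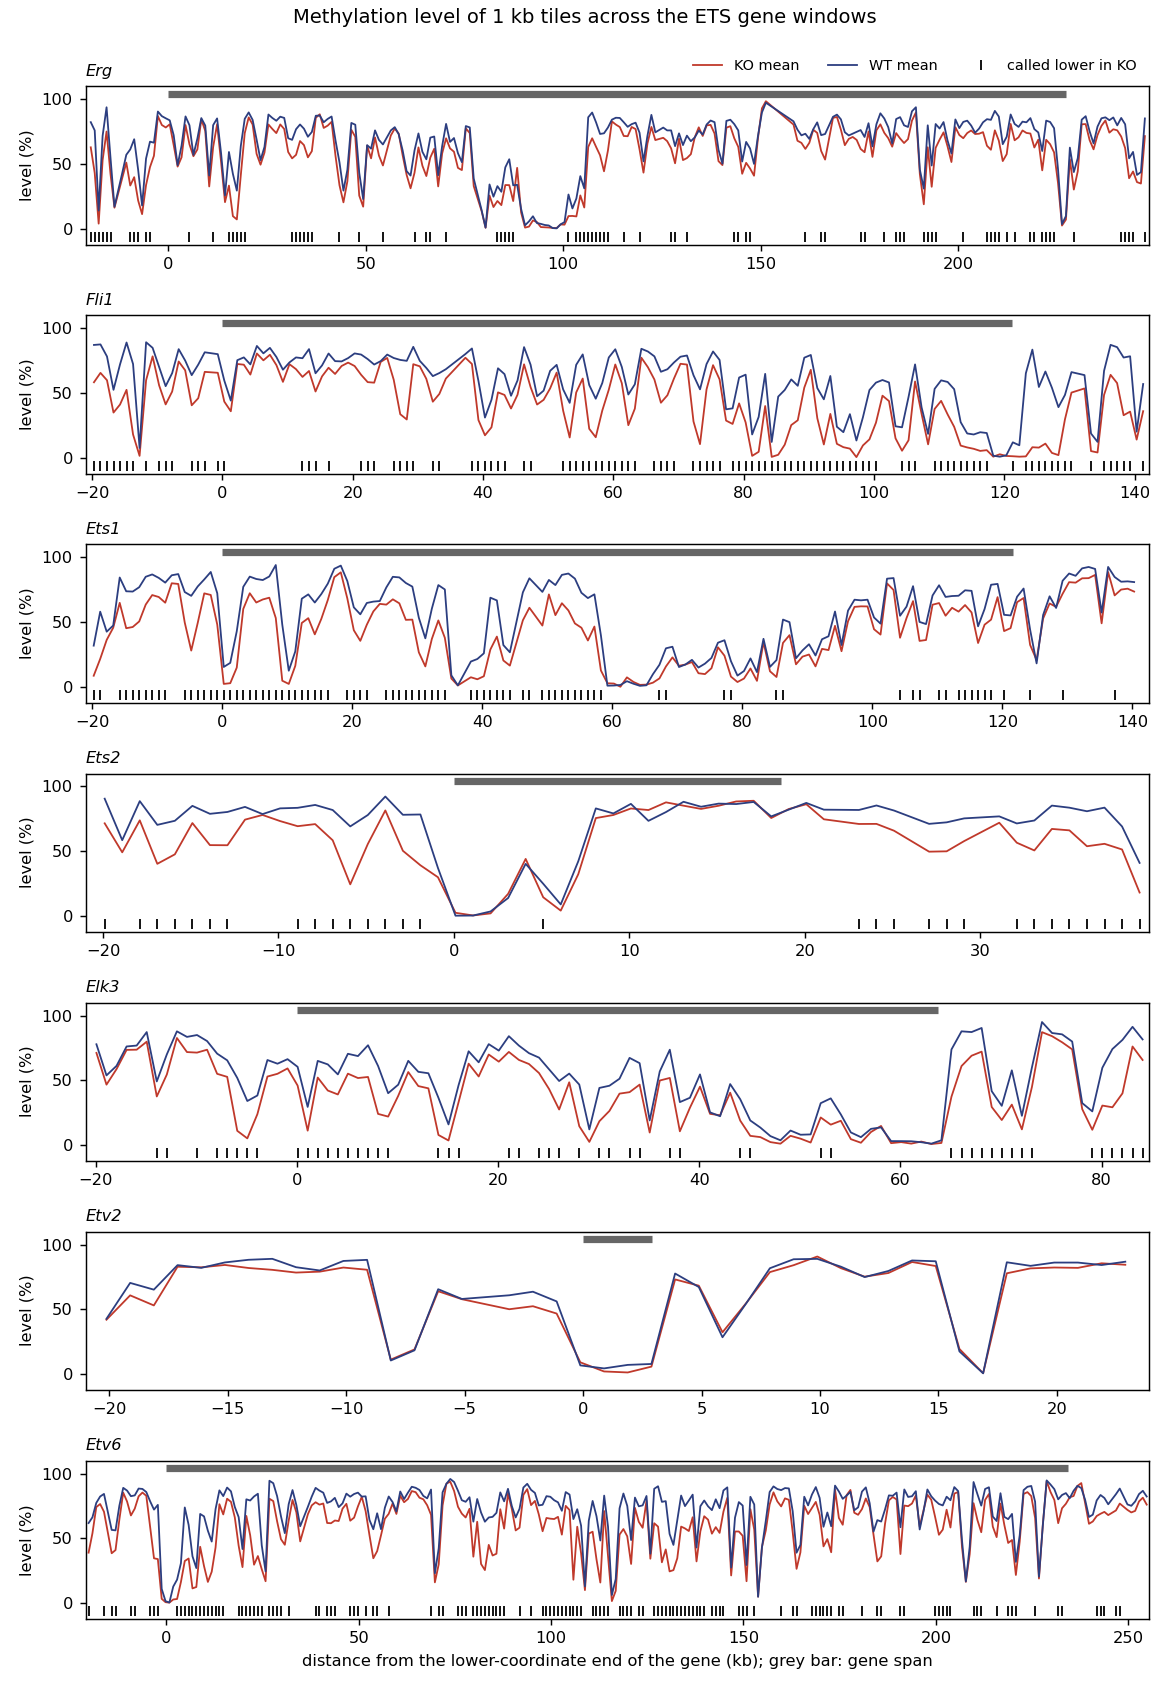
Mean methylation level (%) of each 1 kb tile in KO (red) and WT (blue) across the 7 windows, against distance in kb from the lower-coordinate end of the gene. Grey bars mark the gene spans and ticks the tiles called lower in KO, which number 109 at Fli1 and 0 at Etv2.

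Ets1 and Ets2, which answer to growth factor signals, differed in where the loss lay. The Ets1 window (chromosome 9, 32616241 to 32777820) had 42.5, 42.5 and 43.4% in KO, against 55.0, 56.3 and 57.3% in WT, well apart (-13.4 points, exact permutation test, n = 3 per group, p = 0.10), and 87 of 158 tiles were called lower. The low end, the known start side, had 16.7, 18.3 and 18.6% in KO, against 33.6, 35.1 and 37.8% in WT. All KO samples were far below all WT samples (-17.7 points, SE 1.61, limma, adjusted p = 1.49e-05). Losses of 10 points were called at 18.9% of the 24154 starts and ends tested, whose median was -4.72 points. The tile that holds this end had 1.66, 2.21 and 3.40% in KO, against 15.3, 12.9 and 18.3% in WT. The run of tiles under 10% that meets this end was 2 kb long in each KO sample, and there was none in any WT sample (exact permutation test, n = 3 per group, p = 0.10).

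The loss at Ets1 went on into the gene. Its first 10 kb after the low end had 44.4, 47.0 and 45.3% in KO, against 70.8, 65.9 and 67.3% in WT (-22.4 points, SE 1.86, limma, adjusted p = 4.55e-06). Over all genes the median of this region was -5.77 points and 24.3% of 21286 were called. A run of 23 called tiles in a row (32630001 to 32653000) crossed the low end, at 44.1% ± 0.971 in KO and 65.0% ± 1.23 in WT. It held the largest loss of the window, a tile 9.3 kb inside the gene (32645001 to 32646000) with 6.65, 5.08 and 2.91% in KO, against 55.3, 45.6 and 43.4% in WT. Farther in, a stretch under 10% of 9 kb in KO (32695001 to 32704000) and 8 kb in WT (32695001 to 32703000) was much the same in both, at 3.43 and 4.48% in KO and WT over the KO stretch. It begins 58.8 kb from the low end. Whether a start of Ets1 lies in it is unknown here, so the low end need not be the only start. A run of 19 called tiles over 21 kb (32674001 to 32695000) ended at the edge of this stretch. The body was at 37.5% ± 0.884 in KO and 51.0% ± 1.17 in WT (-13.5 points, SE 1.05, limma, adjusted p = 2.57e-05). The first 10 kb in from the high end had 55.4% ± 1.44 in KO and 69.4% ± 2.40 in WT (-14.0 points, limma, adjusted p = 9.07e-05), a call that ended on centring (-9.11) and on scaling (-8.98). At the high end itself the difference was -8.85 points (limma, adjusted p = 0.00872, below the minimum), and in the 20 kb beyond it 3 of 19 tiles were called, against 16 of 20 tiles beyond the low end.

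At Ets2 methylation was lower in KO on both sides of the gene, while inside the gene the samples of the groups overlapped. Its window (chromosome 16, 95682407 to 95741049) had 57.7, 56.9 and 59.2% in KO, against 70.8, 69.9 and 69.3% in WT (-12.1 points, exact permutation test, n = 3 per group, p = 0.10). The body had 59.1, 58.3 and 60.9% in KO, against 59.8, 61.8 and 60.4% in WT, with overlapping samples. Its difference of -1.22 points (SE 1.01, limma, adjusted p = 0.289) turned positive on centring (3.67) and on scaling (3.64). The 2 flanks together had 58.9, 58.2 and 60.3% in KO, against 78.9, 76.8 and 76.1% in WT, with 29 of 37 tiles called lower, while 1 of the 20 tiles of the span was. The level of the span minus that of the flanks was -3.52 points ± 0.357 in KO and -20.8 ± 1.95 in WT, and these did not overlap (exact permutation test, n = 3 per group, p = 0.10). For the other genes the same quantity differed between KO and WT by -3.26 to 9.50 points, against 17.2 at Ets2.

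The start of Ets2 (95702407) had little methylation in any sample. The window on it had 11.3, 10.3 and 11.3% in KO, against 12.6, 12.4 and 12.9% in WT (-1.62 points, limma, adjusted p = 0.161, turning to 3.27 on centring), and the run under 10% was 3 kb long in each of the 6 samples. The far part of the gene was highly methylated in both groups. The tile from 95715001 to 95716000, for example, had 80.8, 89.2 and 85.5% in KO, against 87.3, 86.8 and 90.5% in WT. Differences in this far part went both ways. The tiles from 95713001 and from 95714001 were higher in KO, by 8.34 and 7.48 points, without a call (limma, adjusted p = 0.113 and 0.0559). Just upstream of the start the picture changed within a few kb. The run of 8 called tiles from 95693001 to 95701000 averaged 56.3% ± 0.476 in KO and 80.9% ± 2.59 in WT, and its strongest tile (95696001 to 95697000) had 21.8, 24.8 and 26.9% in KO, against 74.8, 68.1 and 64.8% in WT (-44.7 points, limma, adjusted p = 1.29e-07). This flank also holds the non-coding gene Gm31989 and part of Gm31901.

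Elk3 and Etv6, the repressors, were lower in KO in the gene span and in both flanks. Of Elk3 29 of 65 tiles of the span were called lower, of Etv6 129 of 235. The low flank of Elk3 lies within the protein-coding gene Cdk17, which also reaches into the low end of the Elk3 span. The Elk3 window (chromosome 10, 93227415 to 93331159) had 38.0, 36.5 and 38.7% in KO, against 50.7, 50.5 and 50.4% in WT (-12.8 points, exact permutation test, n = 3 per group, p = 0.10), and 52 of 105 tiles were called lower. The body was at 29.7% ± 1.25 in KO and 41.4% ± 0.525 in WT (-11.7 points, SE 1.03, limma, adjusted p = 4.31e-05). The window on the start had 14.5, 12.0 and 13.4% in KO, against 26.3, 23.6 and 28.8% in WT (-12.9 points, SE 1.52, limma, adjusted p = 8.57e-05). Of the 5 starts with a known strand, that of Elk3 was the 1 called, against 17.5% of 16077 such starts. Within 500 bp of the start the difference was -1.16 points, with no call, and on centring it was -8.03 for the whole window, also with no call. The tile that holds the start had 1.69% ± 0.611 in KO and 3.72% ± 1.42 in WT. The 20 kb before the start had 49.96, 47.5 and 49.9% in KO, against 67.1, 67.8 and 66.8% in WT, with 15 of 20 tiles called. The first 10 kb of the gene had no such gap, at 6.75, 4.87 and 7.71% in KO, against 9.82, 9.67 and 6.32% in WT. These samples overlapped (-2.16 points, limma, adjusted p = 0.139, and 2.73 on centring). The largest loss lay 17.3 kb upstream (93328001 to 93329000), with 28.6, 24.3 and 34.7% in KO, against 69.3, 80.2 and 73.0% in WT.

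Etv6 had an unmethylated start in both groups and lower methylation in KO on both sides of it. Its window (chromosome 6, 134015700 to 134290158) had 59.0, 59.3 and 60.3% in KO, against 73.2, 72.1 and 72.1% in WT (-12.9 points, exact permutation test, n = 3 per group, p = 0.10), and 143 of 272 tiles were called lower. The window on the start (134035700) had 1.85, 1.24 and 1.59% in KO, against 4.71, 4.72 and 3.79% in WT (-2.85 points, SE 0.671, limma, adjusted p = 0.00605, below the minimum and positive at 2.04 on centring). Before the start, a run of 3 called tiles (134031001 to 134034000) was at 42.5% in KO and 75.6% in WT (-33.1 points). In the 20 kb before the gene 9 of 19 tiles were called lower. The protein-coding gene Gm46977 ends just before this start. The first 10 kb of the gene had 19.4, 21.5 and 21.1% in KO, against 45.0, 43.2 and 43.7% in WT. This gap of -23.3 points (SE 1.43, limma, adjusted p = 7.32e-07) was the largest of this region among the 7 genes, and all KO samples were far below all WT samples. The run under 10% at the start was 5 kb in each KO sample, against 2, 3 and 3 kb in WT (exact permutation test, n = 3 per group, p = 0.10). The body was at 58.6% ± 0.808 in KO and 72.2% ± 0.398 in WT (-13.6 points, SE 0.744, limma, adjusted p = 8.52e-06). Of 32 runs of called tiles, the longest held 18 tiles over 19 kb deep in the gene (134162001 to 134181000), at 50.6% ± 2.19 in KO and 73.8% ± 1.68 in WT. The tile with the largest loss was 22.8 kb from the start (134058001 to 134059000), with 33.4, 24.96 and 30.9% in KO, against 89.7, 77.9 and 79.5% in WT.

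**Figure D4:**
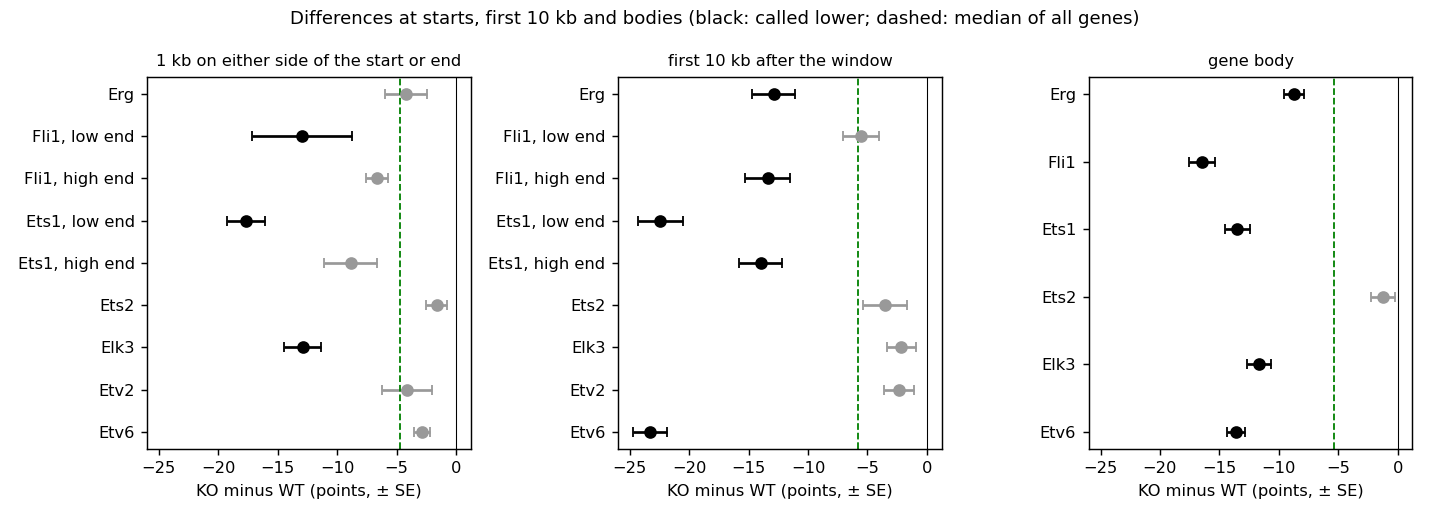
Differences KO minus WT in points with their SE (limma) at the start or ends, in the first 10 kb behind them and over the body of each gene. Black points were called lower, grey ones were not, and the dashed lines mark the medians of all genes at -4.72, -5.77 and -5.37 points.

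Across the genes, 1 of 5 starts and 2 of 4 ends, 5 of 9 first 10 kb regions and 5 of 6 bodies were called lower, and none was called higher in limma. Over all genes 18.9% of starts and ends, 24.3% of first 10 kb regions and 53.3% of bodies were called lower. Of all starts and ends tested 0.0414% were called higher, of all first 10 kb regions 0.00470% and of all bodies 0.0130%. None of these was higher at an unadjusted p under 0.05 either. The first 10 kb stands in for the first intron, since exon positions were not used here. The median difference of the members was -6.67 points at starts and ends, -12.9 in the first 10 kb and -12.6 over bodies. Highly methylated tiles were fewer in KO and unmethylated ones more numerous, except at Etv2 and, for unmethylated tiles, Ets2. Over the whole table, too, tiles with a mean under 10% were more numerous in KO, at 40411 in KO and 26874 in WT. For tiles at 80% or more no such pair of counts over the whole table is given here. The median of the tile means over the whole table was 66.4% in KO and 71.2% in WT. Tiles at 80% or more numbered 46, 50 and 42 at Etv6 in KO, against 138, 116 and 122 in WT, and 32, 30 and 23 at Erg in KO, against 91, 88 and 81 in WT. At Fli1 each KO sample had 2 such tiles, against 24, 27 and 28 in WT. Tiles under 10% numbered 25, 23 and 23 at Ets1 in KO, against 13, 10 and 11 in WT, and 24, 24 and 21 at Elk3 in KO, against 10, 13 and 13 in WT. In both classes Etv2 overlapped between the groups, and in tiles under 10% Ets2 did too, with 5, 4 and 4 in KO and 4 in each WT sample.

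**Figure D5:**
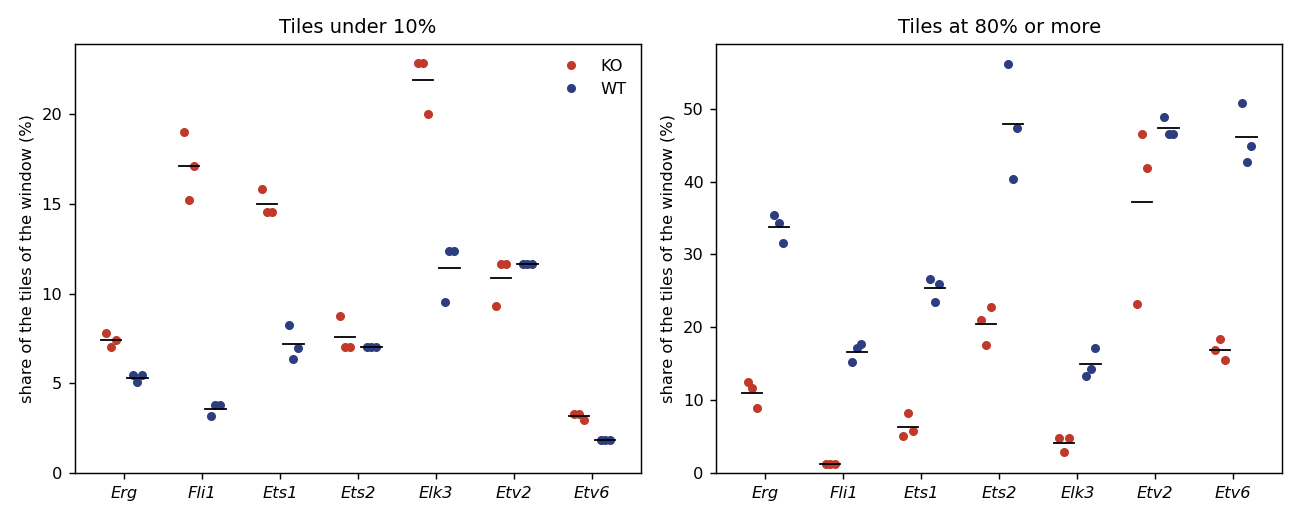
Share (%) of the tiles of each window that were under 10% (left) and at 80% or more (right) in each KO (red) and WT (blue) sample, with group means as lines. Etv2 overlaps between the groups in both panels, and Ets2 in the left one.

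Other members of the ETS family, a list chosen with earlier results of these data known, were also measured. Of 19 genes 17 were measured. Of 14 starts 2 fell and none rose, with a median of -2.27 points, a share near the 17.5% of all starts, and of 15 bodies 11 fell and none rose, with a median of -7.52, against 53.3% of all bodies. The starts that fell were those of the epithelial ETS genes Elf3 (30.2% ± 4.11 in KO, 42.3% ± 1.84 in WT) and Elf5 (42.9% ± 4.25 in KO, 56.3% ± 1.86 in WT). The bodies with the smallest p were those of Etv5, an effector of FGF signals (66.2% ± 0.394 in KO, 77.8% ± 0.301 in WT), the epithelial gene Ehf (61.2% ± 1.18 in KO, 74.0% ± 0.409 in WT) and Elf1 (62.5% ± 0.907 in KO, 72.7% ± 0.569 in WT). Of the 6 ends of genes without a known strand 4 fell, against 18.9% of all starts and ends.

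Endothelial genes that ETS factors are known to bind or activate formed a second list, of which 24 of 25 were measured. This list, too, was chosen with earlier results of these data known, so its shares test no excess over all genes. Of 14 starts 7 fell and none rose (median -9.67 points), of 20 unstranded ends 10 fell, and of 22 bodies 18 fell and none rose (median -10.5). Over all genes 17.5% of starts with a strand, 18.9% of starts and ends and 53.3% of bodies were called lower. The starts with the smallest p were those of the VEGF receptor gene Flt1 (2.50% ± 0.997 in KO, 25.3% ± 0.405 in WT), of Gata2, a haemato-endothelial factor (4.66% ± 1.89 in KO, 31.9% ± 4.51 in WT), and of the VEGF receptor gene Kdr (7.48% ± 1.94 in KO, 24.8% ± 2.54 in WT). The bodies with the smallest p were those of Flt1 (54.8% ± 1.31 in KO, 69.2% ± 0.191 in WT), the nitric oxide synthase gene Nos3 (58.7% ± 1.82 in KO, 78.7% ± 1.999 in WT) and Lmo2 (49.0% ± 0.715 in KO, 62.2% ± 0.620 in WT).

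The genes whose course of methylation around the start was most like that of a member were found over up to 41 steps of 1 kb, from the KO and WT means. The pairs named shared 35 to 40 steps. Each member was compared with 11567 to 12122 genes with a known strand more than 100 kb away. The likeness is the root mean square difference in points, and it says nothing of shared function. The most alike gene for Erg was Crot (12.6 points, median of the genes compared 24.1), for Ets2 Ybx3 (13.2, median 30.3), for Elk3 Gm2102 (23.3, median 47.6), for Etv2 Itsn2 (16.96, median 33.4) and for Etv6 Inpp5a (17.4, median 32.3).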

How the data were processed

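Per the labels' protocols, DNA of sorted lung endothelial cells (30 ng per sample) was sequenced by tagmentation-based bisulfite sequencing, with 3 libraries per sample read as 100 bp paired ends. The submitters' processing notes name BWA 0.7.8 and mm10. The authors deposited a fraction between 0 and 1 for each tile and sample. The caller, smoothing and coverage filter were not given in the sources used here. Smoothing would make neighbouring tiles alike and blur borders. The foreseen model of read counts could not be used, since the file holds levels only.

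Fractions were turned into percent. limma 3.58.1 (R 4.3.3) with a variance trend compared KO with WT on all 6 samples for every tile, start or end (tiles within 1000 bp), first 10 kb and body (at least 3 tiles), adjusted by Benjamini-Hochberg over all regions of a kind. Calls needed an adjusted p under 0.05 and 10 points (bodies 5). The test was checked on simulated data. Single values had two-sided exact permutation tests. Strand was known for 16457 of 20665 protein-coding genes. For the others both ends were tested. Named tiles were those with the largest loss and the longest run (gaps of at most 1 kb). Tables were handled in Python 3.11.15 (pandas 2.3.3, numpy 2.4.6) and plotted with matplotlib 3.10.9. The members and lists were chosen with earlier results of these data known. Inner starts, the comparison of spans with flanks and the tiles under 10% in KO were added after seeing the data.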

Additional observations from a re-analysis of the deposited data

How the results depend on the processing

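Without any one sample, 431 to 488 member tiles were called lower, against 508 with all samples, and 2 to 3 starts and ends, against 3. The 5 first 10 kb regions and 5 bodies called did not change in number. 0 to 1 tiles were then called higher. Centring left 274 tiles lower and 3 higher, 1 start or end, 2 first 10 kb regions and 4 bodies. Scaling left 286 lower and 5 higher, 2, 3 and 4. The shares of all tiles and regions called after centring or scaling are not given here. With 2 times the minimum, 192 tiles, 0 starts or ends, 2 first 10 kb regions and 4 bodies were called. Over every annotated start, an alternative chosen after seeing the data, 1 of 7 was called, with Fli1 and Ets1 left out by construction. The span alone gave 376 of 781 tiles, 50 kb flanks 683 of 1440, and tiles that touch no other gene, added later, 436 of 901. The logit gave 511 tiles and the fit without a trend 481. Differences that turned positive on centring were those of the Etv2 window (1.93), the starts of Etv6 (2.04), Erg (0.638) and Ets2 (3.27), the span end of Etv2 (0.744), the first 10 kb of Etv2 (2.53), Elk3 (2.73) and Ets2 (1.34) and the Ets2 body (3.67). On scaling they were the Etv2 window (2.07), the first 10 kb from the low end of Fli1 (0.493) and the Ets2 body (3.64). The cause was not tested. Read depth is unknown, so it limits the precision of each level to an unknown degree. Samples with the same number deviated together only slightly, with r = -0.00321 to 0.0110 across all tiles and 0.0190 to 0.0568 across member tiles. Even so, 4 of 6 samples correlated best with their own number. With the replicate block 508 tiles, 3 starts or ends, 5 first 10 kb regions and 5 bodies were called.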
